A study of Arabidopsis thaliana with 14 samples.

Results

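NdhN, NdhL and NdhS are nuclear genes of Arabidopsis thaliana for subunits of the chloroplast NADH dehydrogenase-like (NDH) complex. They were chosen as the probe sets annotated to exactly 1 of these genes, with the ndh genes of the plastid genome left out. This gave 3 probe sets for 3 genes, NdhN (AT5G58260, probe set 247816_at), NdhL (AT1G70760, 262288_at) and NdhS (AT4G23890, 254187_at), of 13513 probe sets with 1 gene and 22746 tested. No filter on signal was applied, so all 3 passed into every test. Whole rosettes of the wild-type strain Columbia-0, 5 to 6 weeks old and not treated with any agent, were kept in the dark past the normal end of the night. All plants had the same history, with short days first and then 14 h of light a day, which leaves a night of 10 h. Each sample pooled 3 rosettes, and biotin-labelled RNA was read on an Affymetrix ATH1 array, which holds short probes grouped into probe sets. The 14 arrays covered 8 time points, given here in hours from the end of the normal night. The end of the night had 3 arrays, lettered A, B and C. The times 4 h and 8 h had 2 arrays each (A and B), as did 24 h and 48 h (B and C), and -2 h, 2 h and 6 h had 1 each.

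The NDH complex sits in the thylakoid membrane and passes electrons from reduced ferredoxin to plastoquinone. It takes part in cyclic electron flow around photosystem I and in chlororespiration, the electron transport to plastoquinone that goes on in the dark. Its subunits come from plastid and nuclear genes and are joined with the help of assembly factors named after chlororespiratory reduction (CRR) mutants. NdhN is a stromal subunit of subcomplex A, the arm that stands out from the membrane. NdhL, also called CRR23, is a membrane protein assigned to the same subcomplex. NdhS, also called CRR31, carries the docking site for ferredoxin.

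All values are log2 signal intensities after the authors' robust multi-array average (RMA), so a difference of 1 is a 2-fold difference in signal. The arrays had medians from 6.62 to 6.77, and correlations between replicate arrays ran from 0.975 to 0.993. On array B of 48 h a ribosomal RNA control read 8.98 log2 units against 11.05 to 13.78 on the other 13 arrays, so changes at 48 h are also given without it. The leaf label was checked with RCA, Rubisco activase, the 1 of 8 leaf markers with a probe set used here, which read 13.76 to 14.03 at the end of the night. Of 4 seed storage genes 1 had a probe set used here, PAP85, and of the 7 root and 5 flower markers none did. PAP85 read 4.84 to 5.04 at the end of the night, 8.55 to 9.60 at 8 h and 8.50 to 9.22 at 48 h, a rise of 4.13 ± 0.41 (SE) at 8 h (limma, adjusted p = 8.11e-05). RCA read 9.85 and 11.86 at 48 h, a fall of 3.00 ± 0.48 (adjusted p = 7.33e-04). Without 48 h B, RCA stood at 11.86 at 48 h, still a called fall (adjusted p = 6.93e-04), and the rise of PAP85 at 48 h was 3.56 in place of 3.92. PAP85 and RCA move along with the results below, and their part in them was not tested. In whole rosettes fewer cells of a type and less RNA per cell cannot be told apart.

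The transcripts of the 3 genes did not move together in the extended night. NdhN and NdhL fell, by 48 h to 4.88% and 6.70% of their signal at the end of the night, whereas NdhS rose to 179.9% of it. NdhN and NdhL were both first called as falls at 4 h, with a larger fall for NdhN, and NdhS was first called as a rise at 8 h.

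NdhN read 10.41, 10.70 and 10.83 log2 units on the end of night arrays A, B and C, and 10.86 on the array 2 h before. It read 9.97 at 2 h, 9.24 and 9.28 at 4 h, 8.29 at 6 h and 7.59 and 7.93 at 8 h. It then read 6.90 and 7.23 at 24 h and 6.40 and 6.17 at 48 h. Each array of the extended night lay below all arrays of the earlier time points, with no overlap at any step. Such an order over all steps was not counted for other probe sets. Against the end of the night alone, 45.1% of all probe sets had no overlap at 4 h and 57.0% at 48 h. The mean of NdhN was 10.65 ± 0.21 at the end of the night (SD, n = 3), 7.76 ± 0.24 at 8 h (SD, n = 2) and 6.29 ± 0.16 at 48 h (SD, n = 2).

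NdhL read 11.08, 11.00 and 11.17 log2 units on the end of night arrays A, B and C, and 11.11 on the array 2 h before. It read 10.83 at 2 h, 10.45 and 10.32 at 4 h, 10.09 at 6 h and 9.68 and 9.79 at 8 h. It then read 8.19 and 8.74 at 24 h and 7.15 and 7.22 at 48 h. Here too the arrays of each time point of the extended night lay below all earlier ones, an order not counted for other probe sets. The widest gap between replicates of NdhL was at 24 h. The mean was 11.09 ± 0.08 at the end of the night (SD, n = 3), 8.47 ± 0.39 at 24 h (SD, n = 2) and 7.19 ± 0.05 at 48 h (SD, n = 2).

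NdhS read 11.15, 11.19 and 11.15 log2 units on the end of night arrays A, B and C, and 10.87, its lowest value, on the array 2 h before. It read 11.30 at 2 h, 11.28 and 11.29 at 4 h, 11.37 at 6 h and 11.63 and 11.75 at 8 h. It then read 11.87 and 11.71 at 24 h and 12.11 and 11.92 at 48 h. The arrays at 8 h and later lay above every array up to 6 h, while those of 8 h and 24 h overlapped. Against the end of the night alone, 50.3% of all probe sets had no overlap at 8 h, 55.4% at 24 h and 57.0% at 48 h. Over all 14 arrays the signal of NdhS spanned a 2.36-fold range, against 25.7-fold for NdhN and 16.2-fold for NdhL.

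**Figure D1:**
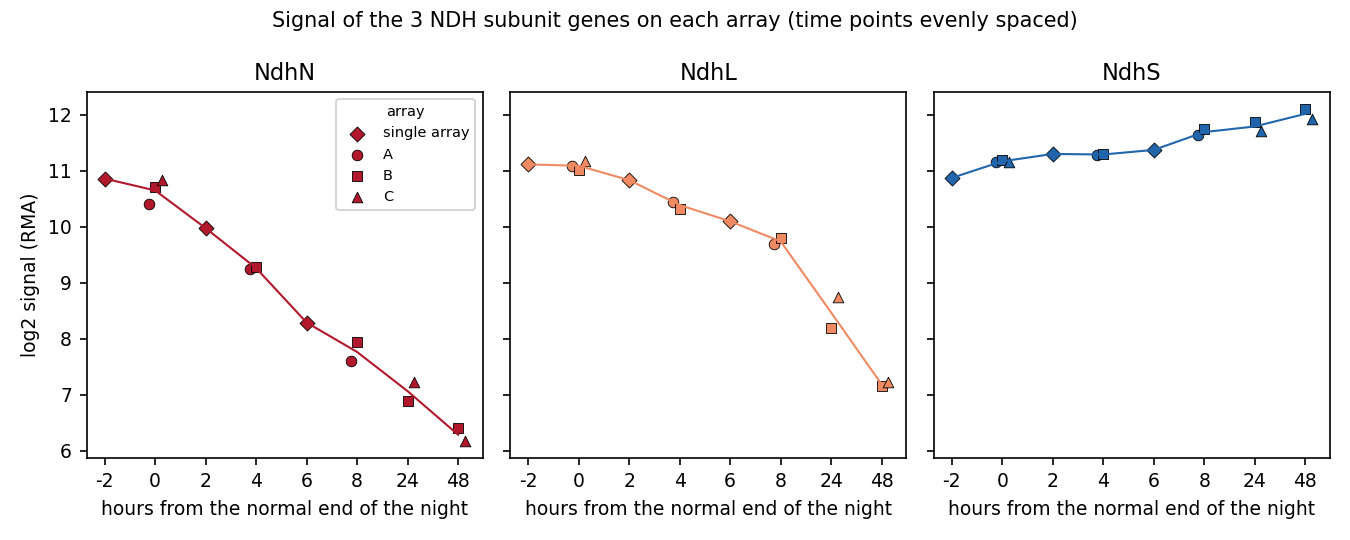
Log2 signal (y axis) of NdhN, NdhL and NdhS on each of the 14 arrays by hours from the normal end of the night (x axis, time points evenly spaced). Points are arrays (circles A, squares B, triangles C, diamonds the unlettered arrays) and lines join the means. NdhN and NdhL go down to 6.17 and 7.15 at 48 h and NdhS goes up to 12.11.

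At 4 h (2 arrays, set against the 3 end of night arrays) NdhN fell by 1.39 ± 0.17 log2 units, a 2.61-fold fall (limma, adjusted p = 6.82e-04). NdhL fell by 0.70 ± 0.15 (adjusted p = 0.0131), and its call was lost without the 4 h array A (adjusted p = 0.0617) or B (0.109). NdhS was at 0.12 ± 0.10 (adjusted p = 0.551), with a 95% interval from -0.11 to 0.35. Errors after ± here and below are limma standard errors unless SD is named. Across the array 16.3% of the 22746 probe sets passed an adjusted p of 0.05 at 4 h, with 8.78% falls and 7.49% rises.

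At 8 h NdhN fell by 2.88 ± 0.17 (7.37-fold, adjusted p = 4.02e-06) and NdhL fell by 1.35 ± 0.15 (2.55-fold, adjusted p = 1.77e-04). NdhS rose by 0.52 ± 0.10 (1.44-fold, adjusted p = 0.00431). With letters as a block the 3 calls stood. All 3 genes were thus called at 8 h, where the share of all probe sets called was 27.7%, with 15.0% falls and 12.7% rises. Median centring turned this balance at 8 h, from 2893 rises and 3417 falls to 3423 and 2972. In size of fall NdhN was in place 69 and NdhL in place 863 of all probe sets, and NdhS was in place 3053 in size of rise.

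At 24 h, a full day after the normal night ended, NdhN fell by 3.58 ± 0.17 (12.0-fold, adjusted p = 9.12e-07) and NdhL fell by 2.62 ± 0.15 (6.14-fold, adjusted p = 2.70e-06). NdhS rose by 0.62 ± 0.10 (1.54-fold, adjusted p = 0.00128). The share of probe sets called at 24 h was 32.6%, with 17.2% falls and 15.5% rises. Median centring turned the balance here too, from 3524 rises and 3902 falls to 4138 and 3461.

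At 48 h, a day later, NdhN fell by 4.36 ± 0.17 (20.5-fold, adjusted p = 1.30e-07) and NdhL fell by 3.90 ± 0.15 (14.9-fold, adjusted p = 1.44e-07). NdhS rose by 0.85 ± 0.10 (1.80-fold, adjusted p = 1.27e-04). Without the 48 h B array the changes were -4.47 for NdhN, -3.87 for NdhL and 0.75 for NdhS, all still called. The share of probe sets called at 48 h was 40.8%, with 20.3% falls and 20.5% rises, and median centring moved the counts from 4664 rises and 4623 falls to 5538 and 4119. In size of fall NdhN was in place 43 and NdhL in place 90 of the 22746 probe sets, or 16 and 35 of those with 1 gene. NdhS was in place 2858 among the rises. All of these changes are measured from the same 3 end of night arrays and so are not independent. Arrays did not overlap with those at the end of the night for 45.1% of probe sets at 4 h, 50.3% at 8 h, 55.4% at 24 h and 57.0% at 48 h.

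**Figure D2:**
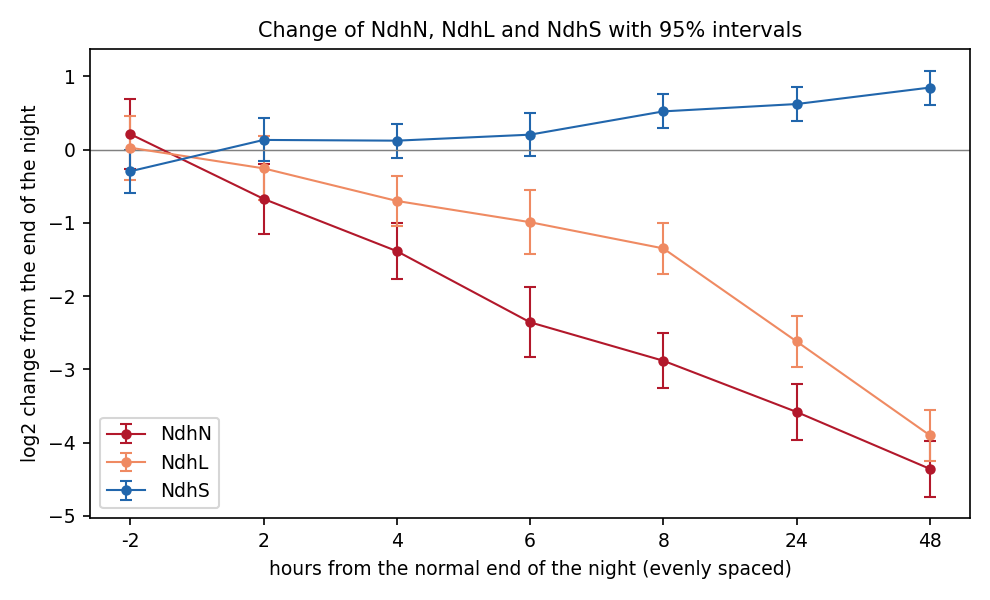
Log2 change from the end of the night (y axis) of NdhN, NdhL and NdhS by hours (x axis, evenly spaced), with 95% intervals from limma as bars. At 48 h the changes are -4.36, -3.90 and 0.85, and at 8 h NdhN and NdhL differ most.

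The unreplicated arrays filled in the first hours, under the assumption that a lone array varies like the replicated ones. At 2 h NdhN was at -0.67 ± 0.21 (adjusted p = 0.395), NdhL at -0.26 ± 0.19 (0.929) and NdhS at 0.13 ± 0.13 (0.970), where 0.435% of probe sets were called (0.391% rises and 0.044% falls). At 6 h NdhN fell by 2.36 ± 0.21 (adjusted p = 1.27e-04) and NdhL fell by 0.99 ± 0.19 (0.00696), while NdhS was at 0.20 ± 0.13 (0.360). At that time 18.0% of probe sets were called, 9.7% as falls and 8.29% as rises. On the -2 h array none of the 3 was called. NdhN was at 0.21 ± 0.21, NdhL at 0.03 ± 0.19 and NdhS at -0.30 ± 0.13 (adjusted p = 0.998 for each), where 0.00879% of probe sets were called.

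Over the 10 arrays between -2 h and 8 h NdhN fell by 0.34 ± 0.02 log2 units per hour (adjusted p = 1.72e-06). At that rate 0.5 of the signal is left after 2.92 h, with a 95% interval from 2.60 to 3.33 h. NdhL fell by 0.16 ± 0.01 per hour (adjusted p = 4.98e-06), which leaves 0.5 of the signal after 6.43 h (5.52 to 7.70 h). NdhS rose by 0.07 ± 0.01 per hour (adjusted p = 4.93e-04). All 3 slopes were called, beside 36.2% of probe sets, 19.7% as falls and 16.5% as rises (3747 rises and 4489 falls, or 4872 and 3813 after median centring of the arrays). Leaving out the -2 h array, from before the normal end of the night, gave slopes of -0.37 for NdhN, -0.17 for NdhL and 0.06 for NdhS. The moderated F-test for any difference among the 8 time points gave adjusted p = 1.43e-06 for NdhN, 2.34e-06 for NdhL and 8.28e-04 for NdhS, with 35.5% of probe sets called.

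On the log2 scale, most of the fall of NdhN up to 48 h came in the first 8 h. NdhL lost more log2 units from 8 h to 48 h, the longer span, than before 8 h. In signal, NdhL stood at 39.3% of its end of night value at 8 h and at 6.70% at 48 h. By that measure NdhL lost more before 8 h. NdhN had reached 31.8% of its 48 h change at 4 h, 66.1% at 8 h and 82.2% at 24 h, on the log2 scale. For NdhL these shares were 18.0%, 34.6% and 67.1%. At 48 h NdhN read below the array medians and NdhL above them, and an effect of low signal on these shares was not tested.

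Between neighbouring replicated times (n = 2 against n = 2) NdhN fell by 1.50 ± 0.18 from 4 h to 8 h (adjusted p = 0.00348). It was at -0.70 ± 0.18 from 8 h to 24 h (adjusted p = 0.0833), where it was called with letters as a block (-0.86, adjusted p = 0.0184). From 24 h to 48 h it fell by 0.78 ± 0.18 (adjusted p = 0.0450), a call that was lost without any 1 of these 4 arrays. The adjusted p was 0.0831 without 24 h B, 0.273 without 24 h C, 0.0715 without 48 h B and 0.118 without 48 h C. NdhL fell by 1.27 ± 0.17 from 8 h to 24 h (adjusted p = 0.00492) and fell by 1.28 ± 0.17 from 24 h to 48 h (adjusted p = 0.00340). From 4 h to 8 h NdhL was at -0.65 ± 0.17 (adjusted p = 0.0709), called with letters as a block (adjusted p = 0.0184). NdhS was at 0.40 ± 0.11 from 4 h to 8 h (adjusted p = 0.0981), called with the block (adjusted p = 0.0309). It was at 0.10 ± 0.11 from 8 h to 24 h (adjusted p = 0.764) and 0.22 ± 0.11 from 24 h to 48 h (adjusted p = 0.375). Few probe sets were called in these comparisons, 3.84% for 8 h against 4 h (2.18% falls, 1.66% rises), 3.24% for 24 h against 8 h (1.89% falls, 1.35% rises) and 5.03% for 48 h against 24 h (2.55% falls, 2.48% rises). Arrays of the 2 times did not overlap for 44.4%, 44.9% and 39.5% of probe sets.

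Whether the genes moved unequally was tested on the difference between 2 of them within each array. An exact permutation test compared this difference over the 5 replicated time points (11 arrays, 17325 arrangements), and p-values were adjusted over the 3 pairs. The level of such a difference depends on the probes and has no meaning of its own, so it is given relative to its end of night mean, with the SD over arrays after ±. NdhN minus NdhL was at -0.69 ± 0.12 at 4 h (SD, n = 2), -1.53 ± 0.16 at 8 h, -0.96 ± 0.15 at 24 h and -0.46 ± 0.21 at 48 h, with a spread of 0.20 at the end of the night (SD, n = 3). The difference was thus widest at 8 h and narrower at 24 h and 48 h. The arrays of 8 h did not overlap with those of 24 h or 48 h. How often this occurs for differences between other genes was not counted. For single probe sets, 44.9% did not overlap at 24 h against 8 h. At 48 h NdhN read 6.40 and 6.17, below the array medians of 6.62 to 6.77, and NdhL read 7.15 and 7.22. Whether low signal of NdhN had a part in the narrower difference was not tested. Over all 5 times NdhN minus NdhL differed with adjusted p = 0.00110 in the exact permutation test, which does not test 8 h alone. NdhN minus NdhS went from -1.51 ± 0.02 at 4 h to -5.20 ± 0.03 at 48 h, and NdhL minus NdhS from -0.82 ± 0.10 to -4.75 ± 0.18. For both, the exact permutation p was 5.77e-05, the smallest the test can give, and the adjusted p was 8.66e-05. All 3 pairs passed without any 1 of the 11 arrays and without both 48 h arrays. These arrangements moved arrays freely between letters. When arrays were moved only within their letter, with the letter as a block (4320 arrangements, added after the data were seen), the exact permutation adjusted p was 0.00278 for NdhN minus NdhL and 0.00139 for both differences from NdhS.

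**Figure D3:**
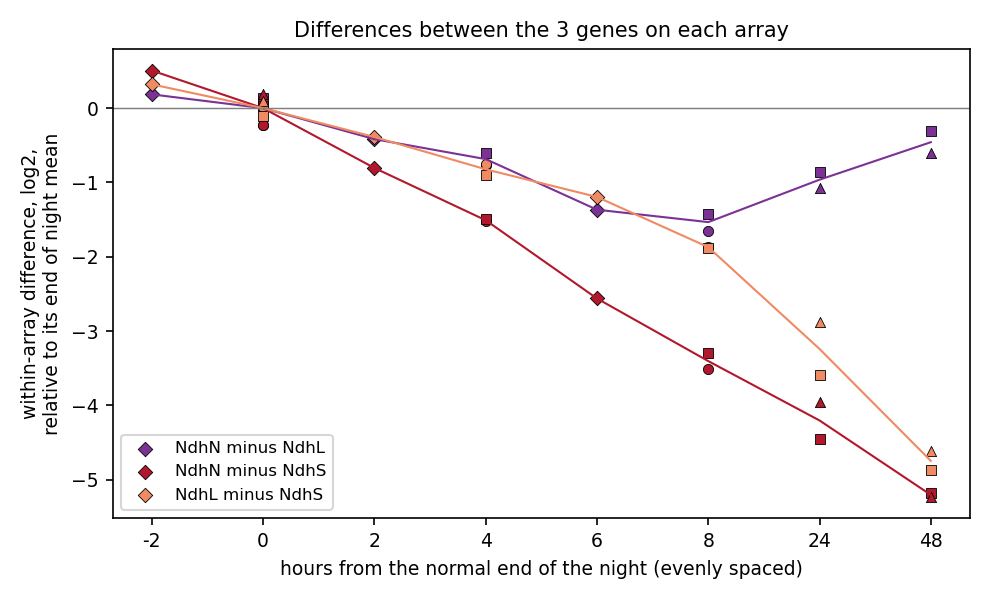
Within-array difference in log2 signal between 2 of the genes, relative to its mean at the end of the night (y axis), by hours from the normal end of the night (x axis, evenly spaced). Points are arrays (circles A, squares B, triangles C, diamonds unlettered) and lines join the means. NdhN minus NdhL is lowest at 8 h (mean -1.53) and returns towards 0, while the differences from NdhS go on to -5.20 and -4.75.

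Of 15 further loci listed for NDH subunits, 1 had a probe set used here, AT2G04039, which has no symbol in the reference, and it fell. It read 10.97 to 11.33 log2 units on the end of night arrays, then 8.10 and 8.31 at 8 h and 6.24 and 6.50 at 48 h. Its arrays at 8 h and 48 h did not overlap with the end of the night, as for 50.3% and 57.0% of all probe sets. It was called as a fall at 4 h, where it read 10.14 and 10.22, and its change was -2.98 ± 0.19 at 8 h (adjusted p = 5.82e-06), -3.16 at 24 h and -4.81 ± 0.19 at 48 h (adjusted p = 1.31e-07). Its difference from NdhN was not tested. The call at 4 h was lost without the 4 h array A (adjusted p = 0.0572), and the change at 48 h was -4.94 without 48 h B.

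Of 13 genes for assembly of the complex or processing of its plastid transcripts, 5 were measured, and none rose at any of the 4 replicated times. At 4 h 3 of the 5 fell, at 8 h 4, and at 24 h and 48 h all 5. Over all probe sets, falls made up 8.78%, 15.0%, 17.2% and 20.3% at these times, and rises 7.49%, 12.7%, 15.5% and 20.5%. The medians of the 5 were -0.89, -0.88, -1.41 and -1.23 against -0.02, 0.01, 0.02 and 0.03 over all probe sets. Without 48 h B all 5 still fell at 48 h, with a median of -1.19. CRR42, an assembly factor of the complex, fell by 2.07 ± 0.17 at 8 h (adjusted p = 2.37e-05) and fell by 2.97 ± 0.17 at 48 h (adjusted p = 9.43e-07). CRR41, another assembly factor, fell, at -0.88 at 8 h and -1.23 at 48 h. CRR21, a pentatricopeptide repeat protein for editing of the plastid ndhD transcript, fell, at -1.68 at 8 h and -2.09 ± 0.22 at 48 h (adjusted p = 4.23e-05). It read 4.86 to 4.98 at 48 h, within the range of PAP85 at the end of the night (4.84 to 5.04). An effect of low signal on the size of its fall was not tested. CRR22 and CRR28, pentatricopeptide repeat proteins for editing of several plastid transcripts, fell, at -0.66 and -0.84 at 48 h. CRR28 was not called at 4 h or 8 h, and its call at 24 h was lost without the end of night array B or C and without either 24 h array (adjusted p = 0.0659 to 0.145). CRR21 lost its call at 4 h without either 4 h array.

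PGRL1B belongs to the other route of cyclic electron flow, which depends on PGR5, and was the 1 of 4 listed genes for that route and for the plastid terminal oxidase that was measured. It was at -0.03 at 8 h and 0.33 at 24 h, neither called, and rose by 0.67 ± 0.14 at 48 h (adjusted p = 0.00285), or by 0.55 without 48 h B (adjusted p = 0.0266).

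Of 44 listed nuclear genes for photosystems, electron carriers and the ATP synthase, 9 were measured. At 4 h 1 fell and at 8 h 2, at 24 h 6 and at 48 h 7, where falls made up 8.78%, 15.0%, 17.2% and 20.3% of all probe sets, and none rose at these times. The counts of falls at 4 h and 8 h are near those shares. Rises made up 7.49%, 12.7%, 15.5% and 20.5% of all probe sets. For the 9 measured genes the medians follow. Their medians were -0.02, -0.06, -0.46 and -0.88, against -0.02, 0.01, 0.02 and 0.03 over all probe sets. Without 48 h B 7 fell at 48 h, with a median of -1.05. Whether these genes and NdhN or NdhL differed in time course was not tested. LHCB4.3, a minor antenna protein of photosystem II, fell at all 4 times, at -2.42 ± 0.19 at 8 h and -4.21 ± 0.19 at 48 h (adjusted p = 3.23e-07). ATPC1, the gamma subunit of the ATP synthase, fell, at -0.61 at 8 h and -1.59 ± 0.10 at 48 h (adjusted p = 1.86e-06). The photosystem I subunits PSAE-1 and PSAN were at -0.06 and -0.03 at 8 h, not called, and fell by 48 h, at -1.53 and -0.88. LHCB4.2, another minor antenna protein, fell by 1.19 at 48 h, and LHCB4.1 (-0.22) and AT2G26500 (-0.21) were not called then. At 24 h the calls of PSAE-1 and LHCB4.2 were lost without array C of that time (adjusted p = 0.109 and 0.0925), and those of PSAN and PSBY without array B (0.215 and 0.208). The calls of PSAN and PSBY were also lost without the end of night array B (0.0687 and 0.0575) or C (0.0793 and 0.0819). PSBY, LHCB4.1 and AT2G26500 are named here after their values were seen.

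**Figure D4:**
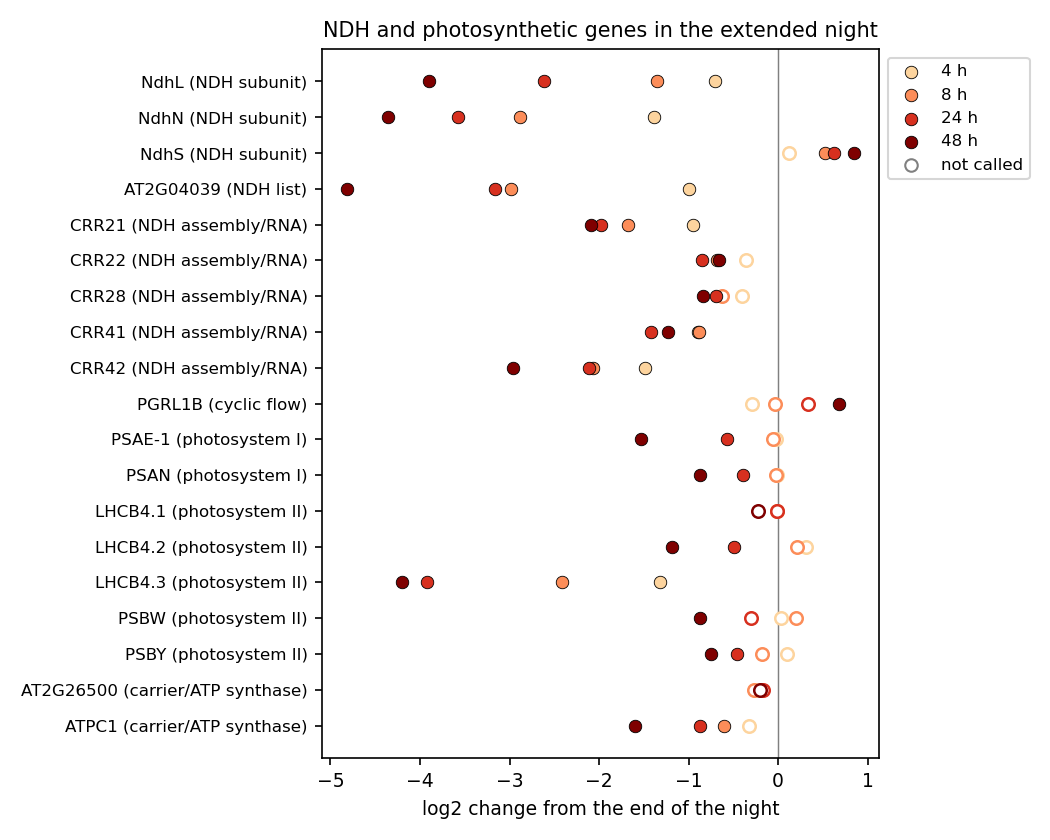
Log2 change from the end of the night (x axis) for each measured gene (y axis) at 4 h, 8 h, 24 h and 48 h, in darker colours for later times. Filled points passed an adjusted p of 0.05 and open points did not. NdhN, NdhL, AT2G04039 and LHCB4.3 lie between -4.81 and -3.90 at 48 h, and NdhS and PGRL1B lie to the right of 0 at that time.

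The genes with the most similar time courses were taken as the 5 probe sets with 1 gene that had the highest Pearson correlation with each gene over the 14 arrays. The arrays share time points and normalization, so these values are descriptions. For NdhN they were AT5G55220 (0.996), AT2G42770 (0.994), AT4G19985 (0.993), AT5G52780 (0.991) and AT5G28750 (0.990), which changed by -4.37 to -2.20 at 48 h. For NdhL they were AT5G35170 (0.995), AT1G18060 (0.994), AT1G80640 (0.994), SBPASE (0.993), the Calvin cycle sedoheptulose-bisphosphatase, and AT3G10060 (0.992). SBPASE fell, at -1.17 at 8 h and -4.29 at 48 h, beside -1.35 and -3.90 for NdhL. For NdhS the correlations were lower, with PAHX (0.975), a phytanoyl-CoA hydroxylase, AT4G23880 (0.973), AT5G01350 (0.969), AT5G63640 (0.969) and AT1G48550 (0.969), which rose by 1.24 to 2.85 at 48 h. A correlation above 0.95 was found for 329 of the 13512 other probe sets with NdhN (2.43%), 188 with NdhL (1.39%) and 47 with NdhS (0.348%). Without 48 h B each of these 15 genes kept its direction at 48 h. They were picked by correlation over arrays that include 48 h, so this is no separate support.

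The reference gene models of NdhN, NdhL and NdhS each overlap 2 others, and which stretch the probe sets cover is not given in the sources used here. NdhL overlaps AT1G70770 and the noncoding AT1G09193. AT1G70770 was at -0.34 at 48 h, a fall (adjusted p = 0.0466) whose call was lost without any 1 of the 5 arrays compared (0.0508 to 0.231), against -3.90 for NdhL. NdhS overlaps AT4G23885 and the noncoding AT4G07190, and AT4G23885 was not called at 4 h, 8 h or 24 h and rose by 1.01 ± 0.18 at 48 h (adjusted p = 0.00143). NdhN overlaps EMB3143 and ABCB25, which had no probe set used here.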

How the data were processed

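The deposited values are log2 signals per probe set, which the authors made with RMA, per the submitters' processing notes. RMA corrects background, quantile-normalizes the arrays and summarises the probes, so changes are relative to an equal overall distribution. For arrays their number sets how precise a value is. The genome build behind the platform annotation is not given in the sources used here. Probe sets were named through the platform annotation (13513 with 1 gene, 503 with several, 8730 with none listed), and 13436 matched the TAIR10.1 reference table. The 64 control probe sets were left out. All 14 arrays were fitted with limma 3.58.1 in R 4.3.3 with 1 mean per time point, p-values were adjusted by Benjamini-Hochberg over 22746 probe sets, and an adjusted p under 0.05 was called. A second fit took a slope over the 10 arrays up to 8 h. The procedures were tried on simulated data with noise independent between arrays, which does not cover deviations that arrays share. Nothing says that the samples came from separate plantings, so p-values measure the spread between these samples, which may be technical. Same-lettered arrays deviated together from their group means (r from 0.17 to 0.58 over 16 pairs). In a group of 2 arrays the 2 deviations mirror each other. The r between different letters (-0.58 to 0.37 over 32 pairs) is thus partly fixed by the same-letter values and adds no separate support. The letters were taken to pair samples, from these data and not from the labels. They were left out of the main fit, so its p-values do not account for such pairing, and entered only among the alternatives. Named genes were the 3 members, the 5 most correlated genes of each, all measured genes listed for NDH, and the 2 largest called changes each way in the other lists. The members and lists were chosen with earlier results of these data known. Alternatives were other scaling, filters, thresholds, variance settings, the letter as a block and leaving out arrays.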

Additional observations from a re-analysis of the deposited data

How the results depend on the processing

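Of 375 changes of NdhN, NdhL and NdhS under alternatives, 353 stayed on their side of the threshold, 19 kept the direction and lost the call, and 3 gained a call. No called change turned its direction. The sign turned in 2 values, both of the uncalled NdhL at -2 h (0.03), to -0.01 with median centring and without array B of the end of the night. The 39 pair tests and 32 list counts kept their calls or stayed within 1.5 times. With the letter as a replicate block, NdhN at 24 h against 8 h was called at -0.86, NdhL at 8 h against 4 h at -0.65 and NdhS at 8 h against 4 h at 0.40. The block changed no other call of these genes, and the block within letters left the 3 pair tests past the threshold (exact p = 0.00278 for NdhN and NdhL, 9.26e-04 for the others). Thresholds of adjusted p under 0.01 or at least 2-fold dropped NdhL at 4 h (-0.70) and NdhN at 48 h against 24 h (-0.78), and at least 2-fold also dropped NdhS at 8 h (0.52), 24 h (0.62) and 48 h (0.85). These thresholds were not applied to the unreplicated times, where the fall of NdhL at 6 h was 1.99-fold. NdhN at 48 h against 24 h lost its call with median centring (-0.76, adjusted p = 0.0549), a second quantile normalization (-0.76, 0.0586), trend and robust variances (-0.78, 0.0522) and the arrays of these times alone (-0.78, 0.201), and ranged from -0.95 to -0.61 when 1 array was left out. NdhL at 4 h ranged from -0.76 to -0.64 when 1 array was left out. With the arrays of the 2 times alone, NdhL lost its calls at 24 h against 8 h (-1.27, 0.0612) and 48 h against 24 h (-1.28, 0.124), where fewer arrays entered the fit. What caused any of the lost calls was not tested. Calls over all probe sets moved by over 1.5 times with the block, from 3700 to 5960 at 4 h, 874 to 2459 for 8 h against 4 h, 736 to 1523 for 24 h against 8 h and 1144 to 2972 for 48 h against 24 h. Leaving out 1 array gave 1759 to 2930, 185 to 397, 157 to 261 and 346 to 1739 calls, and the arrays of the 2 times alone gave 273 for 24 h against 8 h and 2 for 48 h against 24 h. Leaving out both 48 h arrays gave 4340, 1230 and 1090 calls in the first 3. At 2 h the 99 calls fell to between 47 and 63 when 1 end of night array was left out, and the 2 calls at -2 h became 1 to 10. Each listed gene had at most 1 probe set with 1 gene, so using all probe sets of a gene changed nothing.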

Other observations

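The genes beside NdhS on the chromosome were examined after its correlation with AT4G23880 had been seen. Of the 3 gene models on each side of NdhS in the reference, 3 had a probe set used here. AT4G23880, before NdhS, rose by 0.86 at 4 h, 1.76 at 8 h, 1.99 at 24 h and 2.85 ± 0.19 at 48 h (limma, adjusted p = 3.15e-06), and its call at 4 h was lost without either 4 h array or the end of night array A (adjusted p = 0.0505 to 0.136). AT4G23870, before NdhS too, rose by 2.03 at 4 h, 2.45 at 8 h, 3.24 at 24 h and 3.13 ± 0.32 at 48 h (adjusted p = 3.88e-05). AT4G23910, after NdhS, was at 0.27 at 48 h (adjusted p = 0.193) and was not called at 4 h, 8 h, 24 h or 48 h. Beside NdhN, FHIT (-0.23) and AT5G58280 (-0.12) were not called at 48 h, and AT5G58300 fell by 0.88 (adjusted p = 0.0266), a call lost without array A or B of the end of the night and without 48 h C (0.0825 to 0.160). Beside NdhL, AT1G70780 fell, at -0.78 at 4 h, -0.66 at 8 h and -0.46 at 48 h, the last a call lost without 48 h B. AT1G70790 fell by 0.78 at 4 h, a call lost without 4 h A (0.0546). AT1G70740 rose by 0.68 at 48 h, a call lost without array A of the end of the night (0.0552) or 48 h C (0.102).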
